A study of Mus musculus with 38 samples.

Results

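Collagen genes were read from bulk RNA-seq of mouse tail skin. Members were the rows whose gene symbol is Col, a number, a and a number, which gave 43 genes of the 19219 in the table. They were placed in 7 classes: 8 fibrillar, 7 cartilage, 9 basement membrane, 6 FACIT (chains that sit on the surface of fibrils), 6 beaded filament, 4 transmembrane and 3 short chain or other. Classes follow the structure the chains build or, for the cartilage and basement membrane classes, where they occur. The cartilage class holds Col2a1, Col9a1, Col9a2, Col9a3, Col10a1, Col11a1 and Col11a2, so these are not in the fibrillar or FACIT class. The study asked how a mouse model of vitiligo, a loss of skin pigment, depletion of gut microbes with ABX, and injected hippuric acid, a metabolite linked to gut microbes, change the skin. Its 38 libraries fall in 6 groups. The no-induction group (n = 9) is labelled wild type and the vitiligo group (n = 9) vitiligo induction. The ABX groups are the no-induction mice given ABX (n = 6) and the vitiligo-induced mice given ABX (n = 6). The vehicle group (n = 3) and the hippuric acid group (n = 5) are wild type mice injected intraperitoneally (i.p.). The labels give no strain, age, sex, dose, induction method or batch. They do not say that each library is a separate mouse, so a p-value here speaks only of the spread over libraries, which may be technical.

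Collagen chains wind around each other into a rope-like helix inside the cell and are then secreted. Type I and type III chains assemble into the fibrils that give the dermis its strength, and type V chains set fibril width. Type IV collagen is the sheet-forming network of basement membranes, under the epidermis and around vessels, fat cells, nerves and muscle. Type VII collagen forms the anchoring fibrils that tie the epidermal basement membrane to the dermis, and type XVII collagen spans the membrane of basal keratinocytes in hemidesmosomes. Fibroblasts are the main source of fibrillar collagen in skin, and keratinocytes make most type VII and XVII chains. Vitiligo itself is a disease of melanocytes.

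Upstream sequence is shown for 5 members on which the comparisons turn: the abundant fibrillar genes Col1a2 and Col3a1, and the genes Col5a3, Col24a1 and Col15a1, each of which changed in at least 1 comparison. The lines hold the 150 bases before the RefSeq transcript start in assembly GRCm38.p6, 5′ to 3′ on the strand of the gene. Capitals mark 3 short motifs and their reverse complements, namely CCAAT (reverse ATTGG), the motif TATAAA (reverse TTTATA) and the motif GGGCGG (reverse CCGCCC).
Col1a2 (chr6:4505468-4505617, + strand): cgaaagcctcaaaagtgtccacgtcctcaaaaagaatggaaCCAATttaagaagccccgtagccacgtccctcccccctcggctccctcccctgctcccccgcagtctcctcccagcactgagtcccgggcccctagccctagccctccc
Col3a1 (chr1:45311388-45311537, + strand): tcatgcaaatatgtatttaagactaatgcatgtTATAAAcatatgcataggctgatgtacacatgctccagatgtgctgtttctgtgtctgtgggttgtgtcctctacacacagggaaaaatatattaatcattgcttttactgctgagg
Col5a3 (chr9:20815068-20815217, - strand): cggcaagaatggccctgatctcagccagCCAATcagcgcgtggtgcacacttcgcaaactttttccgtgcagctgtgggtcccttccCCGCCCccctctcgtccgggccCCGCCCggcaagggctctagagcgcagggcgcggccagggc
Col24a1 (chr3:145292322-145292471, + strand): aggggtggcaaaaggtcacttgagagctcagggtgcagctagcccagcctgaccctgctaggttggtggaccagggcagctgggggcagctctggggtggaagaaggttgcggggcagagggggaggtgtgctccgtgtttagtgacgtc
Col15a1 (chr4:47207862-47208011, + strand): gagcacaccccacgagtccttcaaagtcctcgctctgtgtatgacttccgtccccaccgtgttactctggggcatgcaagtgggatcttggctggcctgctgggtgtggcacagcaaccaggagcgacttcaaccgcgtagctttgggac
The Col1a2 window holds CCAAT, the letters of a common upstream element, and the Col3a1 window holds TATAAA. The Col5a3 window holds CCAAT once and CCGCCC at 2 places, and none of these letters occurs in the printed windows of Col24a1 and Col15a1. RefSeq windows reaching 250 bases upstream were matched for 34 of the 43 members, in 37 windows. Col1a1, Col2a1, Col4a3, Col5a2, Col9a3, Col12a1, Col14a1, Col22a1 and Col26a1 had none. On both strands, CCAAT lay in 35.1% of the member windows and in 33.8% of all 32851 windows, and TATAAA in 13.5% and 12.4%. GGGCGG lay in 56.8% of member windows and 32.7% of all windows, and the member windows were richer in G and C (median 59.2% against 52.4%). A match is a description of the letters only.

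The type IV genes Col4a1 and Col4a2 lie head to head on opposite strands, and their first exons share 22 bases in the GENCODE M21 annotation. The shared stretch is shown because both genes moved in the comparisons below and because reads from it cannot be assigned to 1 gene without strand information.
Col4a2 (chr8:11312805-11312826, + strand): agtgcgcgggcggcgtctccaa
Col4a1 (chr8:11312805-11312826, - strand): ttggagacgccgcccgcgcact
Whether the counting used strand is not given in the sources used here. The same limit applies to Col9a3, whose exons share 234 bases with Tcfl5 on the other strand, and to Col4a3, which shares 563 bases with C430014B12Rik.

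The libraries held between 15341831 and 27920844 counts. Levels below are in CPM, the usual unit that scales a count to the library total, here after TMM scaling. Skin identity was clear from basal keratinocyte markers (4398 to 10580 CPM summed in every library) and fibroblast markers (1554 to 7065 CPM). The skeletal muscle marker sum stayed at or under 14.4 CPM. Some libraries stood apart from their groups. The Y-linked gene Ddx3y was above 1 CPM in 3 libraries (no-induction 011 and 012, vehicle 001) and the gut gene Fabp2 was above 1 CPM in those 3 and in vitiligo 000 and 260. Vehicle 001 also had the highest Col1a1, Col1a2 and Col3a1 of all 38 libraries, and vitiligo 001 the lowest Col1a1. The adipocyte marker sum differed between groups. Its range was 408 to 1249 CPM without induction, 1679 to 5159 CPM with induction, 242 to 469 CPM and 271 to 719 CPM in the ABX groups, 1421 to 1844 CPM with vehicle, and 285 to 783 CPM with hippuric acid. By edgeR at an adjusted p under 0.05, all 8 adipocyte markers rose with induction, where 5.27% of all genes were called as higher. All 8 fell with ABX in uninduced and induced skin and with hippuric acid. There 15.8%, 8.05% and 8.29% of all genes were called as lower. All 6 hair follicle markers tested fell with ABX in uninduced skin, and 2 of 6 fell with induction (2.47% of all genes called as lower). With induction under ABX 1 of 6 rose (3.72% as higher). Of the 5 melanocyte markers, 3 fell with induction and 1 with ABX in uninduced skin. With ABX in induced skin 3 rose (5.06% of all genes called as higher), and with hippuric acid 2 rose (5.48%). The part of hair follicle content in the collagen results was not tested. In bulk tissue, fewer cells of a type and less RNA per cell cannot be told apart.

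Collagen genes took a median of 1.23% of all counts per library (0.555% to 1.94%). Per kilobase of exon, the highest members were Col1a1 at a median of 280 CPM per kb, Col3a1 at 245 and Col1a2 at 233, followed by Col17a1 at 117 and Col6a1 at 107. Type I and type III genes together made up a median of 54.5% of the per-kilobase collagen total, between 44.5% and 74.3%. The ranges of Col1a1, Col3a1 and Col1a2 overlapped widely across libraries, and their order within a library differed between groups. The per-kilobase ratio of Col1a1 to Col3a1 was 1.25 to 1.635 without induction, 1.08 to 1.77 in vitiligo and 1.31 to 1.64 with vehicle. It was 0.59 to 0.816 in uninduced skin with ABX, 0.866 to 1.55 with vitiligo and ABX and 0.973 to 1.54 with hippuric acid. The ratio of Col1a1 to Col1a2 was 0.956 to 1.53 over all libraries. These ratios carry no test. Basement membrane genes made up a median of 12.1%, beaded filament genes 11.6%, transmembrane genes 8.68% and FACIT genes 7.02%. Cartilage genes made up 0.316%. Type II collagen, the main fibril of cartilage, was near the floor: Col2a1 did not exceed 1.13 CPM in any library. Col22a1 and Col19a1 were the lowest members, and the 4 members Col9a1, Col9a2, Col19a1 and Col22a1 did not pass the low-count filter in any comparison. The other 39 were tested in at least 1 comparison, 34 of them in all 7.

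Each comparison was fitted over all genes with edgeR's quasi-likelihood test, and a gene was called at a Benjamini-Hochberg adjusted p under 0.05. With vitiligo induction against no induction, 5 of the 35 members tested rose and none fell. Of all genes tested in that comparison, 7.74% were called, 5.27% as higher and 2.47% as lower. The median log2 fold change of the members was 0.12 and that of all genes 0.01. The members that rose were Col4a1, Col4a2 and Col15a1 of the basement membrane class, Col5a3 of the fibrillar class and Col6a6 of the beaded filament class. No cartilage, FACIT, transmembrane or short chain member was called, with 2 of their 12 tested members under an unadjusted p of 0.05. DESeq2 also called none of those 12, and limma-voom 1 in each of the 4 classes, where they called 12.6% and 42.6% of all genes. Without the 4 libraries with Fabp2 3 members and 3.7% of all genes were called, and without vitiligo library 062 8 members and 11.8%. A further fit took the adipocyte marker level, the mean of log2(CPM + 1) over the 8 markers, as a covariate. It called none of 35 members and 0% of all genes, so the lack of member calls there was not particular to collagen. The adipocyte marker sum did not overlap between the groups compared for induction, ABX in induced skin and hippuric acid. In those fits group and marker level can hardly be told apart.

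With ABX in uninduced skin, 11 of 36 members rose and 2 fell, where 31.1% of all genes were called, 15.4% as higher and 15.8% as lower. The fibrillar class had the highest share, with 5 of 8 members risen and 1 fallen. In vitiligo-induced skin 6 of 37 members rose and 2 fell, where 13.1% of all genes were called, 5.06% as higher and 8.05% as lower. The 2 counts of called members thus stand beside unequal shares of all genes, and their difference was not tested. The median fold of the members was 0.25 on the log2 scale in uninduced and 0.22 in induced skin, against -0.002 and 0.02 for all genes. In uninduced skin 8 members were called without no-induction ABX library 005 (24.5% of all genes). With the adipocyte covariate 9 were called there, 6 of them among the 13 (25.1% of all genes). In induced skin 5 were called without the libraries with Fabp2 (6.9% of all genes). With that covariate none was called in induced skin, where 0.007% of all genes were.

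Under ABX, induction moved only Col15a1 of 37 members tested by edgeR, where 4.97% of all genes were called, 3.72% as higher, and 3 members had an unadjusted p under 0.05. Hippuric acid against vehicle raised 5 and lowered 2 of 39 members, where 13.8% of all genes were called, 5.48% as higher and 8.29% as lower. Without hippuric acid library 3 or 4 that was 4 members (8.18% and 8.66% of all genes), and in the fit of all 38 libraries 2 (12.1%). With the adipocyte covariate no member was called, where 0.007% of all genes were. Fibroblast markers moved beside these counts. Of the 8, 4 rose and none fell with hippuric acid (Pi16 by 1.00, Fbn1 by 0.50, Pdgfra by 0.48 and Pdgfrb by 0.56 on the log2 scale), and their sum was 4038 to 5529 CPM with vehicle and 4869 to 6002 CPM with hippuric acid. With ABX in uninduced skin Pdgfrb rose by 0.82 and Pdgfra by 1.01 while Dpp4 fell by 0.94, and the sum was 4766 to 6117 CPM against 2744 to 6968 CPM. In induced skin with ABX Pdgfrb rose by 0.46 and Dpt fell by 1.50, and with induction Dpt alone was called by edgeR. The part of fibroblast content in the collagen results was not tested. For the test of the difference between the 2 induction effects, with and without ABX, 11.5% of all genes were called, 6.68% as a higher and 4.77% as a lower effect under ABX, and 1 of 38 members, Col5a3, as lower. Vehicle against no induction called none of 37 members and 0% of all genes with edgeR, with 1 member under an unadjusted p of 0.05, and neither DESeq2 nor limma-voom called a member. The comparisons share groups: the vitiligo and no-induction libraries each enter more than 1 of them. So the folds below stand side by side and their likeness is no separate evidence.

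**Figure D1:**
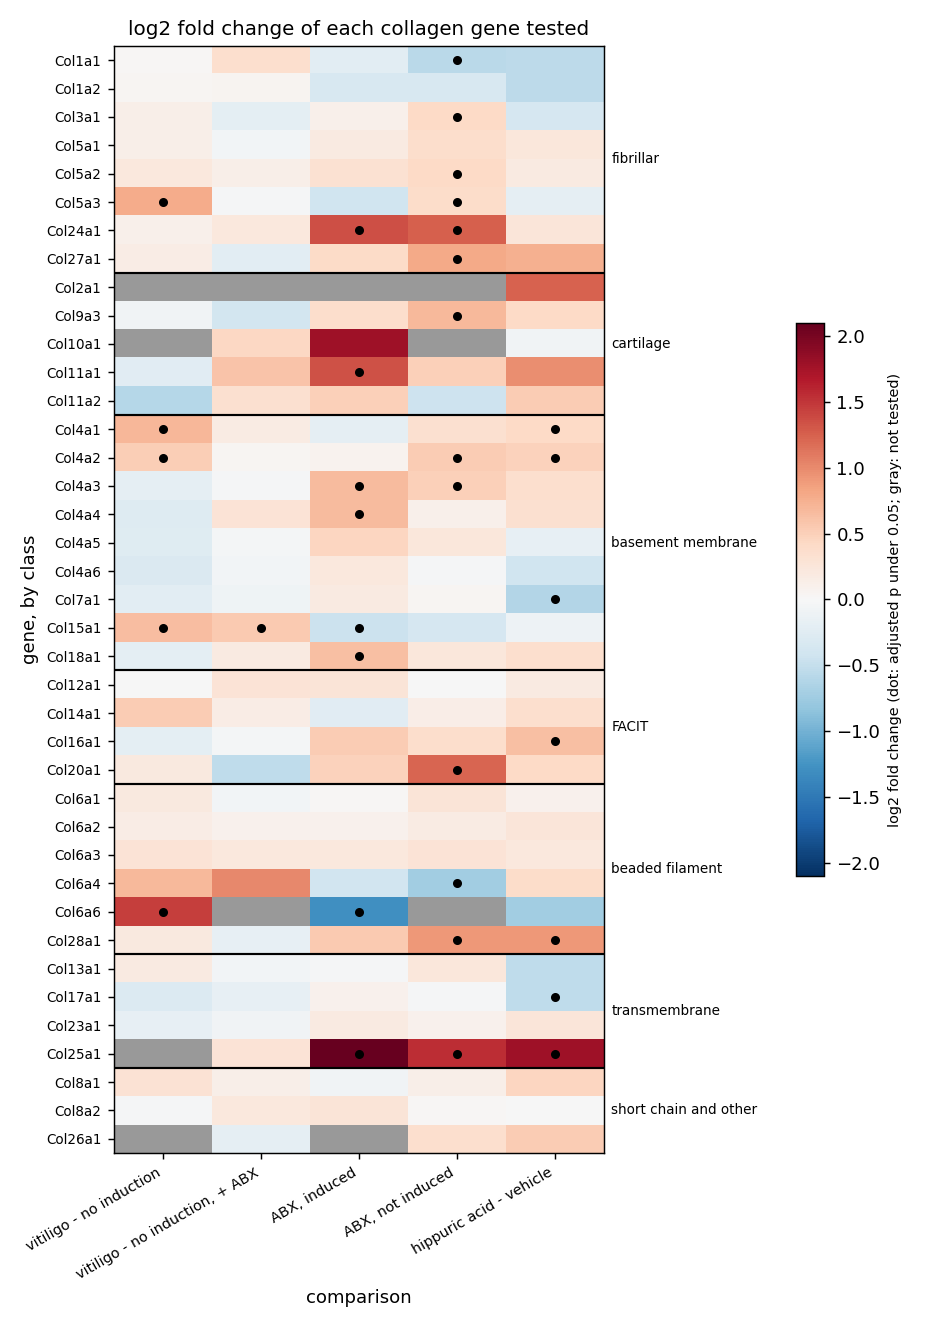
Log2 fold changes of the 39 collagen genes tested, in rows by class, for 5 comparisons in columns. Red is higher and blue lower in the first-named or treated group, gray cells were not tested, and black dots mark an adjusted p under 0.05. The induction column has 5 dots, 3 of them in the basement membrane class, and the column for ABX in uninduced skin has 13 dots, 6 of them in the fibrillar class.

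Type I collagen genes code for the main fibril protein of skin. Col1a1 ranged from 1192 to 2953 CPM without induction (median 2098) and from 820 to 3067 CPM with induction (median 2236). The 2 groups overlapped almost fully, and the log2 fold change was 0.02 ± 0.22 (SE), with an edgeR adjusted p of 0.975. Its 95% interval ran from -0.42 to 0.46. With ABX, Col1a1 ranged from 969 to 1954 CPM in uninduced skin (median 1424) and from 980 to 2386 CPM in induced skin (median 1760). In uninduced skin it fell with ABX by 0.57 ± 0.20 on the log2 scale (edgeR adjusted p = 0.0381). The groups overlapped, with 1 of the 6 ABX libraries below the lowest of the others. That call was lost when any 1 of 9 of the 15 libraries was left out (adjusted p up to 0.0923) and without the 2 libraries with Ddx3y (adjusted p = 0.0689). It was also lost with limma-voom (-0.24, adjusted p = 0.321) and in the fit of all 38 libraries (adjusted p = 0.0669), and with the adipocyte covariate the fold was 0.47 ± 0.39 (adjusted p = 0.405). In induced skin the ABX fold was -0.23 ± 0.24 (adjusted p = 0.571).

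Col1a2, the partner chain of type I collagen, was called in no comparison by the main edgeR fit, DESeq2 or limma-voom over all libraries of the groups compared. With the replicate number as a block, edgeR called it as lower with ABX in uninduced skin. Col1a2 ranged from 1770 to 4846 CPM without induction (median 3472) and from 1219 to 4437 CPM with induction (median 3897). With ABX it ranged from 1920 to 3477 CPM in uninduced skin (median 2586) and from 1632 to 3707 CPM in induced skin (median 2674). The medians with ABX were lower, and the ranges overlapped. The log2 fold change with induction was 0.05 ± 0.23 (edgeR adjusted p = 0.919). The ABX folds were -0.34 ± 0.21 in uninduced skin (adjusted p = 0.218) and -0.33 ± 0.24 in induced skin (adjusted p = 0.368).

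Col3a1 codes for type III collagen, which is woven with type I in the dermis and is abundant in young and healing skin. It ranged from 1424 to 3002 CPM without induction (median 2151) and from 2402 to 3579 CPM in uninduced skin with ABX (median 2816). It rose with ABX there by 0.43 ± 0.16 (edgeR adjusted p = 0.0457), while Col1a1 fell in the same libraries. The call was lost when any 1 of 10 of the 15 libraries was left out, with an adjusted p up to 0.124. It was also lost without the low-count filter and in the fit of all 38 libraries. Neither the replicate number as a block nor an offset for length and GC kept it. In induced skin the range was 1082 to 2863 CPM without ABX (median 2391) and 1112 to 3807 CPM with ABX (median 2503). That difference was 0.11 ± 0.23 (adjusted p = 0.792), and induction without ABX gave 0.12 ± 0.17 (adjusted p = 0.701), or 0.39 ± 0.14 with limma-voom (adjusted p = 0.0327).

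The ratio of Col1a1 to Col3a1 counts within a library did not overlap between uninduced skin with and without ABX, unlike either gene. It lay between 0.837 and 1.09 without induction (median 0.984) and between 0.395 and 0.546 in uninduced skin with ABX (median 0.511). It was 0.722 to 1.18 in vitiligo (median 0.947) and 0.579 to 1.03 with vitiligo and ABX (median 0.774), which overlap. The ratio of Col1a1 to Col1a2, the chains of 1 protein, was also lowest in uninduced skin with ABX, at 0.505 to 0.563 against 0.591 to 0.724 without ABX. These ratios were chosen after the levels were seen and carry no test.

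**Figure D2:**
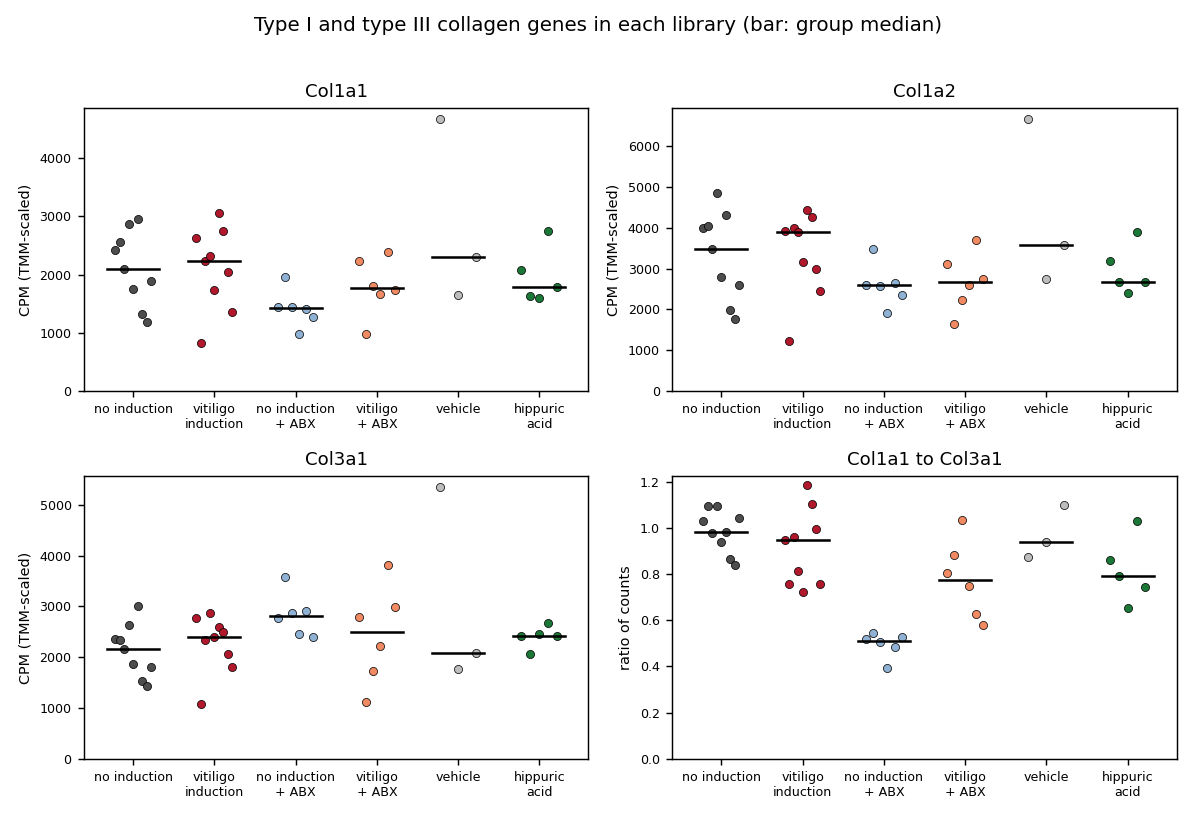
Col1a1, Col1a2 and Col3a1 in CPM, and the ratio of Col1a1 to Col3a1 counts, with 1 point per library in the 6 groups and a bar at each group median. Vehicle library 001 is the highest point for all 3 genes, and the ratio in the 6 uninduced ABX libraries lies between 0.395 and 0.546, below all 9 no-induction libraries.

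Hippuric acid gave no call among the 8 fibrillar members, of which 1 had an unadjusted p under 0.05. DESeq2 called 1 of them as higher and limma-voom none. Col1a1 was 4669, 1648 and 2296 CPM in the 3 vehicle libraries and 2078, 1631, 1604, 2747 and 1789 CPM in the 5 hippuric acid libraries. The groups overlapped, and the vehicle mean rested on library 001. The log2 fold change was -0.54 ± 0.31 (edgeR adjusted p = 0.261) with library 001 and 0.02 ± 0.23 (adjusted p = 0.96) without it. Col3a1 was 5348, 1758 and 2090 CPM with vehicle and 2415, 2057, 2465, 2674 and 2408 CPM with hippuric acid. Its fold was -0.35 ± 0.31 (adjusted p = 0.479) with that library and 0.34 ± 0.13 (adjusted p = 0.0918) without it, so the sign turned on 1 library. Col1a2 was 6665, 2751 and 3584 CPM with vehicle and 3193, 2676, 2409, 3901 and 2670 CPM with hippuric acid, with a fold of -0.55 ± 0.26 (adjusted p = 0.191), or -0.070 without library 001 (adjusted p = 0.832).

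Type V chains join type I fibrils. Col5a3, the third chain of type V, gave the smallest adjusted p of any member with induction. It lay between 55.7 and 90.0 CPM without induction (median 71.1) and between 92.0 and 171 CPM with induction (median 108), so the 9 induced libraries were above all 9 uninduced ones. The log2 fold change was 0.77 ± 0.13 (edgeR adjusted p = 0.000737). Leaving out the 4 libraries with Fabp2 left a fold of 0.57 ± 0.11 (adjusted p = 0.0101). The adipocyte marker sum separated the same 18 libraries without overlap. With the adipocyte marker level as a covariate the fold was 0.00 ± 0.21 (edgeR adjusted p = 0.997). The part of adipocyte content in the Col5a3 result was not tested beyond this fit. In it group and marker level can hardly be told apart, and 0% of all genes were called.

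Under ABX, induced and uninduced skin overlapped for Col5a3, at 51.8 to 141 CPM (median 85.5) and 79.9 to 108 CPM (median 87.8). The induction effect was smaller with ABX than without by 0.81 ± 0.22 on the log2 scale in the test of the difference (edgeR adjusted p = 0.0164). Without the 4 libraries with Fabp2 that difference was -0.60 ± 0.21 (adjusted p = 0.0752). In uninduced skin ABX raised Col5a3 by 0.39 ± 0.10 (adjusted p = 0.00924) and Col5a2, the common second chain of type V, by 0.42 ± 0.12 (adjusted p = 0.0171). The Col5a2 call was lost in the fit of all 38 libraries (adjusted p = 0.085). Col5a2 lay between 168 and 275 CPM without ABX (median 231) and between 251 and 349 CPM with it (median 305). Col5a1, the chain present in most type V molecules, was not called by edgeR, with folds between -0.05 and 0.37 in the 5 group comparisons. limma-voom called it with ABX in uninduced skin, at 0.56 ± 0.14 (adjusted p = 0.00321).

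Col24a1 and Col27a1 are the minor fibrillar chains, found mostly in developing bone and cartilage. Col24a1 lay between 1.22 and 3.01 CPM without induction (median 2.04) and between 3.48 and 6.04 CPM in uninduced skin with ABX (median 5.08). The groups did not overlap, and the log2 fold change was 1.25 ± 0.19 (edgeR adjusted p = 0.000191). In induced skin Col24a1 lay between 1.50 and 3.27 CPM without ABX (median 1.99) and between 2.89 and 13.3 CPM with it (median 4.07). There 5 of the 6 ABX libraries were above all 9 others, and the fold was 1.35 ± 0.30 (adjusted p = 0.00668). Without vitiligo ABX library 005, the one at 13.3 CPM, the fold was 0.91 ± 0.23 (adjusted p = 0.0213), and with the adipocyte covariate it was -0.83 ± 0.76 (adjusted p = 0.923). Induction itself left Col24a1 at a fold of 0.11 ± 0.20 (adjusted p = 0.76).

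Col27a1 lay between 5.40 and 8.75 CPM without induction (median 6.71) and between 8.46 and 17.0 CPM in uninduced skin with ABX (median 10.5). It rose there by 0.79 ± 0.14 on the log2 scale (edgeR adjusted p = 0.000702), with the lowest ABX library inside the range of the others. With the adipocyte covariate the fold was 0.44 ± 0.33 and was not called (adjusted p = 0.339). In induced skin the range was 5.85 to 8.58 CPM without ABX (median 7.30) and 7.15 to 14.6 CPM with ABX (median 9.11). That fold was 0.41 ± 0.14 and was not called by edgeR (adjusted p = 0.0623), but was by DESeq2 (adjusted p = 0.0404) and limma-voom (adjusted p = 0.011). Hippuric acid gave Col27a1 a fold of 0.75 ± 0.24 (edgeR adjusted p = 0.0608), called by DESeq2 (adjusted p = 0.0204).

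Type IV collagen is built from 6 chains, of which the Col4a1 and Col4a2 products form the network found in nearly all basement membranes. Col4a1 lay between 237 and 399 CPM without induction (median 287) and between 340 and 654 CPM with induction (median 461). Of the 9 induced libraries, 7 were above all uninduced ones. Col4a1 rose by 0.70 ± 0.13 on the log2 scale (edgeR adjusted p = 0.00212), and without the 4 libraries with Fabp2 by 0.50 ± 0.13 (adjusted p = 0.0407). With the adipocyte marker level as a covariate its fold was 0.11 ± 0.25.

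Col4a2 moved the same way by less. It lay between 175 and 311 CPM without induction (median 238) and between 231 and 466 CPM with induction (median 343). The rise was 0.51 ± 0.13 (edgeR adjusted p = 0.02). It was not called without the 2 libraries with Ddx3y (0.41, adjusted p = 0.0517) or without the 4 with Fabp2 (0.28, adjusted p = 0.175). With the adipocyte marker level as a covariate the Col4a2 fold was -0.06 ± 0.25.

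Under ABX the Col4a1 difference with induction was 0.17 ± 0.14 (edgeR adjusted p = 0.54). Its range was 316 to 493 CPM in uninduced skin with ABX (median 361) and 312 to 517 CPM in induced skin with ABX (median 446). The difference between the 2 induction effects was -0.55 ± 0.20 and was not called by edgeR (adjusted p = 0.073), while limma-voom called it for Col4a1 (-0.66 ± 0.18, adjusted p = 0.00625) and for Col4a2 (-0.61 ± 0.18, adjusted p = 0.0109). Col4a2 lay between 279 and 443 CPM in uninduced skin with ABX (median 320) against 175 to 311 CPM without ABX, and rose with ABX there by 0.54 ± 0.13 (adjusted p = 0.00428). The Col4a1 fold in that comparison was 0.34 ± 0.13 (adjusted p = 0.0518), a call with DESeq2 (adjusted p = 0.0374) and limma-voom (adjusted p = 0.00598). In induced skin ABX gave neither gene a call.

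Both genes rose with hippuric acid. Col4a1 was 359, 333 and 349 CPM with vehicle and 530, 457, 412, 495 and 416 CPM with hippuric acid. Col4a2 was 269, 227 and 267 CPM with vehicle and 407, 340, 359, 356 and 328 CPM with hippuric acid. Neither gene's groups overlapped. The folds were 0.41 ± 0.12 for Col4a1 (edgeR adjusted p = 0.0384) and 0.49 ± 0.11 for Col4a2 (adjusted p = 0.0165). The Col4a1 call was lost when any 1 of 6 of the 8 libraries was left out, with an adjusted p up to 0.0967. Both calls were lost in the fit of all 38 libraries (adjusted p = 0.148 for Col4a1 and 0.0863 for Col4a2). Neither was called with the adipocyte covariate, where the folds were 0.75 ± 0.24 (adjusted p = 0.364) and 0.57 ± 0.25. The adipocyte marker sum was lower with hippuric acid and higher with induction.

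The ratio of Col4a1 to Col4a2 counts, whose products join in 1 molecule, differed between groups. It lay between 1.19 and 1.37 without induction, between 1.34 and 1.66 with induction, between 1.02 and 1.21 in uninduced skin with ABX, and between 1.15 and 1.29 in induced skin with ABX. The ratio was thus lower with ABX, without overlap in induced skin and with a small overlap in uninduced skin. It was 1.31 to 1.47 with vehicle and 1.15 to 1.39 with hippuric acid. These ratios were looked at after the levels and carry no test.

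Col4a3, Col4a4, Col4a5 and Col4a6 code for the chains of the more specialized type IV networks. Col4a4 lay between 3.94 and 6.82 CPM in vitiligo skin (median 5.62) and between 7.66 and 9.81 CPM with vitiligo and ABX (median 8.67). The groups did not overlap, and Col4a4 rose by 0.67 ± 0.13 (edgeR adjusted p = 0.00237). Col4a3, its neighbour in the genome, lay between 2.08 and 5.20 CPM without ABX (median 2.89) and between 3.85 and 6.07 CPM with ABX (median 4.94) in induced skin. It rose by 0.66 ± 0.18 (adjusted p = 0.025), a call lost without vitiligo ABX library 002, 005 or 006, and the fold was -0.01 ± 0.51 with the adipocyte covariate. In uninduced skin Col4a3 rose with ABX by 0.49 ± 0.18 (adjusted p = 0.0428), a call lost without any 1 of 11 of the 15 libraries (adjusted p up to 0.119) and with the adipocyte covariate (adjusted p = 0.732). Col4a5 and Col4a6 were called in no comparison by edgeR. Col4a6 was called as lower with hippuric acid by DESeq2 (-0.42 ± 0.14, adjusted p = 0.019) and limma-voom (-0.48 ± 0.14, adjusted p = 0.0471), and with induction by limma-voom (-0.47 ± 0.11, adjusted p = 0.00231). limma-voom also called Col4a5 as higher with ABX in induced skin (0.59 ± 0.16, adjusted p = 0.00981).

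Types XV and XVIII collagen are proteoglycans of the basement membrane zone. Col15a1 lay between 64.4 and 138 CPM without induction (median 98.8) and between 104 and 226 CPM with induction (median 146), with 7 of 9 induced libraries above all uninduced ones. It rose by 0.65 ± 0.15 (edgeR adjusted p = 0.00938). Without the 4 libraries with Fabp2 the fold was 0.40 ± 0.12 (adjusted p = 0.0814), and with the adipocyte marker level as a covariate it was 0.05 ± 0.28. Col15a1 was the single member that edgeR called with induction both with and without ABX. Under ABX it lay between 68.6 and 84.9 CPM in uninduced skin (median 80.3) and between 85.7 and 144 CPM in induced skin (median 114), with no overlap. That rise was 0.54 ± 0.11 (adjusted p = 0.0153) and was 0.64 ± 0.12 with the adipocyte covariate (adjusted p = 0.0205).

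ABX lowered Col15a1 in induced skin by 0.46 on the log2 scale, with a standard error of 0.15 (edgeR adjusted p = 0.0471). That call was lost without any 1 of 13 of the 15 libraries, with an adjusted p up to 0.108. In uninduced skin DESeq2 and limma-voom called Col15a1 as lower with ABX (-0.36 ± 0.14 and -0.30 ± 0.10, adjusted p = 0.0355 and 0.0229), and edgeR did not (adjusted p = 0.0505). Col18a1 lay between 126 and 232 CPM in induced skin without ABX (median 192) and between 226 and 458 CPM with ABX (median 262). It rose by 0.64 ± 0.16 (adjusted p = 0.0144), and with the adipocyte covariate the fold was -0.31 ± 0.45. The adipocyte marker sum did not overlap between these 2 groups, so group and marker level can hardly be told apart in that fit.

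**Figure D3:**
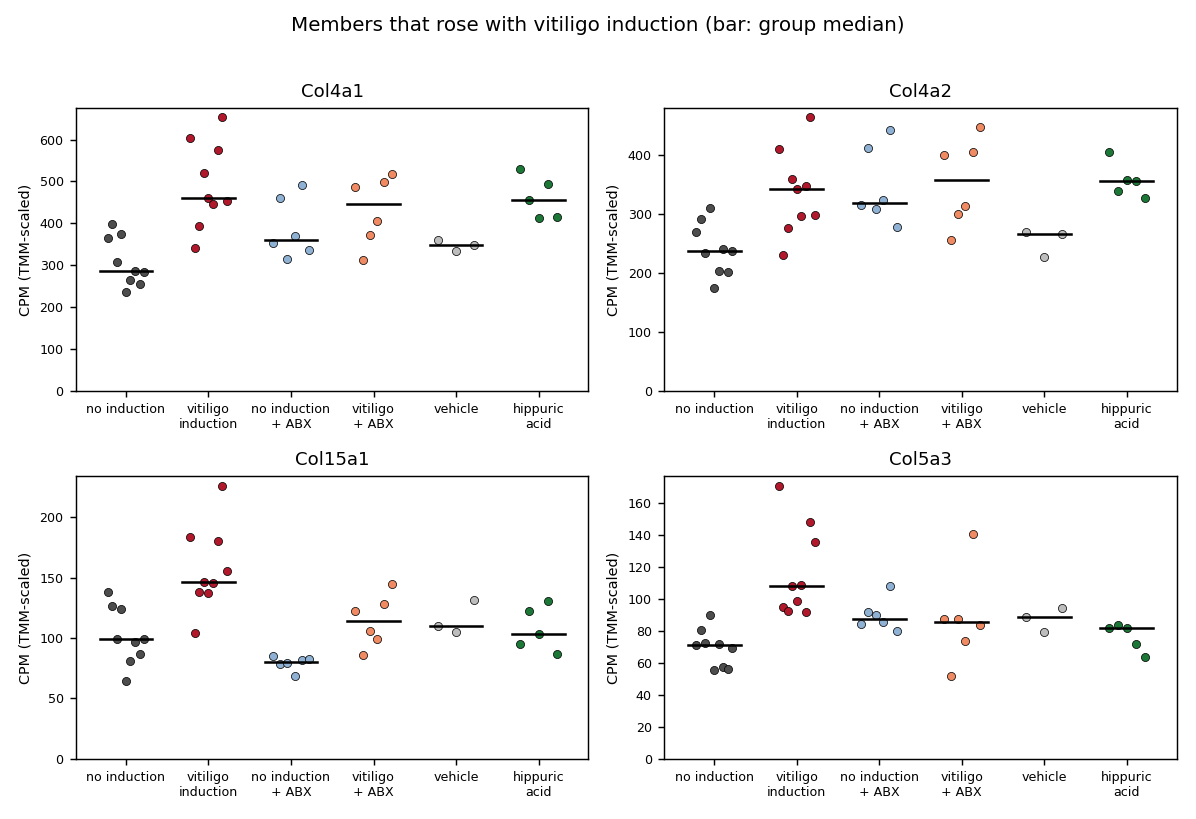
Col4a1, Col4a2, Col15a1 and Col5a3 in CPM, with 1 point per library in the 6 groups and a bar at each group median. For Col5a3 all 9 vitiligo points lie above all 9 no-induction points, and for Col4a1 and Col15a1 7 of the 9 do.

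Col7a1 codes for type VII collagen, the anchoring fibril. It was 91.8, 77.5 and 93.7 CPM with vehicle and 57.0, 58.4, 59.5, 62.3 and 49.2 CPM with hippuric acid. All 5 hippuric acid libraries were below all 3 vehicle libraries. Col7a1 fell by 0.62 on the log2 scale with a standard error of 0.10 (edgeR adjusted p = 0.00403), and without vehicle library 001 by 0.56 (adjusted p = 0.0056). The call was lost in the fit of all 38 libraries. With the adipocyte covariate the fold was -0.50 ± 0.25 (adjusted p = 0.564). In the other 4 group comparisons its folds lay between -0.23 and 0.18 and none was called. With induction the range was 49.8 to 124 CPM (median 59.1) against 62.7 to 100.5 CPM (median 81.0), and the fold of -0.23 ± 0.15 (adjusted p = 0.351) became -0.38 ± 0.11 and a call without vitiligo library 062 (adjusted p = 0.0373).

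Col17a1, the hemidesmosome collagen of basal keratinocytes, fell with hippuric acid as well. It was 670, 775 and 909 CPM with vehicle and 628, 584, 551, 474 and 481 CPM with hippuric acid, with no overlap. The fall was 0.53 on the log2 scale, or a fold of -0.53 ± 0.14 (edgeR adjusted p = 0.0298). The call was lost without vehicle library 003 or without hippuric acid library 3, 4 or 5 (adjusted p up to 0.0817). It was also lost in the fit of all 38 libraries, with the replicate number as a block and with the adipocyte covariate. Beside it the basal keratinocyte markers Krt14 and Krt5 fell by 0.81 and 0.61 with hippuric acid (adjusted p = 0.00847 and 0.0211), the 2 of 6 markers of that list that were called. The median log2 fold change of the 6 markers was only -0.12, so the list did not fall as a whole. The basal keratinocyte marker sum, which includes Krt14 and Krt5, was 6451 to 8727 CPM with vehicle and 4398 to 5656 CPM with hippuric acid. Of the suprabasal markers, 3 of 4 also fell, where 8.29% of all genes were called as lower. The part of keratinocyte content in the Col7a1 and Col17a1 results was not tested.

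Induction left Col17a1 without a call. It ranged from 608 to 1014 CPM without induction (median 753) and from 456 to 1247 CPM with it (median 569), and the fold was -0.28 ± 0.16 (edgeR adjusted p = 0.28). Vitiligo library 062 was the highest of its group for both Col17a1 and Col7a1. It also had the highest basal keratinocyte marker sum of its group (10580 CPM) and the lowest adipocyte marker sum (1679 CPM). Without that library the Col17a1 fold with induction was -0.46 ± 0.11 and was called (adjusted p = 0.0159). With limma-voom over all 18 libraries it was -0.39 ± 0.12 (adjusted p = 0.0144). ABX moved Col17a1 in neither pair of groups.

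Col25a1 codes for a transmembrane collagen best known from neurons. It was low, between 0.132 and 0.795 CPM without induction (median 0.423) and between 0.519 and 1.56 CPM in uninduced skin with ABX (median 1.30). It rose there by 1.56 ± 0.32 (edgeR adjusted p = 0.00183). In induced skin it lay between 0 and 1.05 CPM without ABX (median 0.231), with 1 library at 0, and between 0.454 and 3.75 CPM with ABX (median 1.17). That rise of 2.09 ± 0.57 (adjusted p = 0.0219) was 1.53 ± 0.55 and not called (adjusted p = 0.0934) without vitiligo ABX library 005. With hippuric acid Col25a1 was 1.02, 1.23, 1.11, 0.778 and 0.825 CPM, above all 3 vehicle libraries at 0.0490, 0.338 and 0.504 CPM. The fold was 1.79 ± 0.54 (adjusted p = 0.0495), and the call was lost without any 1 of 7 of the 8 libraries. It was kept in only 2 of 10 other settings. Among those that lost it were the fit without the low-count filter, limma-voom and the fit of all 38 libraries. The replicate number as a block and an offset for length and GC lost it too. With the adipocyte covariate Col25a1 was called in none of the 3 comparisons, with folds of 0.47, 0.60 and 1.98. The other transmembrane members, Col13a1 and Col23a1, were called in no comparison by edgeR, DESeq2 or limma-voom.

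FACIT collagens link fibrils to each other and to other matrix molecules. Col16a1 was 182, 217 and 235 CPM with vehicle and 304, 299, 340, 335 and 369 CPM with hippuric acid, with no overlap. It rose by 0.64 ± 0.12 (edgeR adjusted p = 0.00666). The call was lost in the fit of all 38 libraries (adjusted p = 0.118) and with the adipocyte covariate (0.32 ± 0.25, adjusted p = 0.744). With ABX its folds were 0.38 ± 0.18 in uninduced skin (adjusted p = 0.116) and 0.53 ± 0.21 in induced skin (adjusted p = 0.1), neither called by edgeR. limma-voom called both, at 0.55 ± 0.16 (adjusted p = 0.00754) and 0.48 ± 0.16 (adjusted p = 0.035). Col20a1 lay between 0.914 and 2.87 CPM without induction (median 1.71) and between 3.01 and 4.97 CPM in uninduced skin with ABX (median 3.84). The groups did not overlap, and it rose by 1.22 ± 0.21 (edgeR adjusted p = 0.000512). With the adipocyte covariate the fold was 1.07 ± 0.53 and was not called (adjusted p = 0.152). In induced skin the ABX fold of Col20a1 was 0.48 ± 0.23 (adjusted p = 0.167).

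Col12a1 and Col14a1, which bind the surface of type I fibrils, were called in no comparison by edgeR. Col12a1 split the no-induction group. Libraries 001, 002, 003 and 005 lay between 627 and 755 CPM and libraries 011, 012, 021, 022 and 023 between 266 and 379 CPM. Col14a1 split the same way, at 171 to 210 against 79.7 to 110 CPM. So did Col16a1, at 298 to 357 against 139 to 250 CPM, and Col8a1, at 28.5 to 42.6 against 13.5 to 20.3 CPM. The labels give no batch for these library numbers. This group is the reference for induction, for ABX in uninduced skin and for vehicle. The part of the split in the results of those comparisons was not tested. The Col12a1 fold with induction was 0.00 ± 0.26 (edgeR adjusted p = 0.998), and that of Col14a1 was 0.53 ± 0.25 (adjusted p = 0.182), or 0.81 ± 0.19 and a call with limma-voom (adjusted p = 0.00243).

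Type VI collagen forms beaded filaments around cells. Its main chains Col6a1, Col6a2 and Col6a3 were called in no comparison by edgeR. Col6a1 ranged from 264 to 575 CPM without induction (median 413) and from 218 to 579 CPM with induction (median 500), and its fold was 0.20 ± 0.17 (edgeR adjusted p = 0.471), against 0.42 ± 0.13 and a call with limma-voom (adjusted p = 0.0179). limma-voom called all 3 main chains as higher with induction and with ABX in uninduced skin. Their edgeR folds lay between -0.05 and 0.29 over the 5 group comparisons. The calls of this class fell on Col6a4, Col6a6 and Col28a1. Col6a6 lay between 0.122 and 1.50 CPM without induction (median 0.517) and between 1.08 and 3.44 CPM with induction (median 1.50). It rose by 1.45 ± 0.33 (adjusted p = 0.00973). In induced skin it lay between 0.397 and 1.18 CPM with ABX (median 0.734) and fell by 1.29 on the log2 scale with a standard error of 0.32 (adjusted p = 0.0135). In uninduced skin with ABX it lay between 0.148 and 0.704 CPM and did not pass the low-count filter of that comparison.

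Col6a4 lay between 0.709 and 1.65 CPM without induction (median 1.34) and between 0.486 and 1.09 CPM in uninduced skin with ABX (median 0.743). It fell there by 0.73 with a standard error of 0.23 (edgeR adjusted p = 0.022), a call lost without no-induction ABX library 002 or 005 and with the adipocyte covariate (-1.10 ± 0.49, adjusted p = 0.106). With induction edgeR did not call Col6a4, while DESeq2 (0.68 ± 0.24, adjusted p = 0.042) and limma-voom (0.54 ± 0.20, adjusted p = 0.0336) called it as higher. Under ABX both also called it as higher with induction, at 1.00 ± 0.31 (DESeq2 adjusted p = 0.0219) and 1.23 ± 0.25 (limma-voom adjusted p = 0.006). Col28a1, a beaded filament member known from peripheral nerve, moved with both ABX and hippuric acid. It lay between 6.44 and 14.0 CPM without induction (median 8.71) and between 14.4 and 23.7 CPM in uninduced skin with ABX (median 17.3), with no overlap. That rise was 0.92 ± 0.18 (adjusted p = 0.00102). With vehicle it was 8.82, 9.80 and 7.18 CPM and with hippuric acid 16.4, 16.8, 18.1, 17.0 and 12.5 CPM, again with no overlap. That rise was 0.91 ± 0.16 (adjusted p = 0.00535). In induced skin the ABX fold of Col28a1 was 0.55 ± 0.19 and was not called by edgeR (adjusted p = 0.0674), but was by DESeq2 (adjusted p = 0.0437) and limma-voom (adjusted p = 0.0121). Beside these values, 4 of 6 Schwann cell markers rose with ABX in uninduced skin, 1 of 6 in induced skin and 1 of 6 with hippuric acid, where 15.4%, 5.06% and 5.48% of all genes were called as higher, and the part of nerve content was not tested.

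Of the 7 cartilage members, edgeR called 2. Col11a1, a chain of the thin fibrils of cartilage that also occurs outside it, lay between 13.3 and 53.0 CPM in vitiligo skin (median 31.7) and between 47.7 and 115 CPM with vitiligo and ABX (median 81.5). It rose by 1.34 ± 0.26 (edgeR adjusted p = 0.00276), and 4 of the 6 ABX libraries were above all 9 others. With the adipocyte covariate that fold was -0.72 ± 0.68 (adjusted p = 0.927). In uninduced skin the range was 15.0 to 71.0 CPM without ABX (median 35.1) and 25.8 to 75.5 CPM with it (median 55.3), a fold of 0.50 ± 0.29 (adjusted p = 0.205), or 0.71 ± 0.25 and a call with limma-voom (adjusted p = 0.0256). With hippuric acid Col11a1 was 67.4, 37.8, 68.7, 107 and 95.3 CPM against 22.3, 48.5 and 44.0 CPM with vehicle, a fold of 0.98 ± 0.36 (adjusted p = 0.102) that DESeq2 called (adjusted p = 0.0148). Col9a3 rose with ABX in uninduced skin by 0.68 ± 0.23 (adjusted p = 0.0318), from 0.532 to 1.46 CPM (median 0.907) to 0.986 to 1.83 CPM (median 1.55). That call was lost without no-induction library 011 or no-induction ABX library 001, 003, 004 or 005, and with the adipocyte covariate (0.017 ± 0.54, adjusted p = 0.986).

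Chondrocyte markers moved beside these members. Their sum was 25.1 to 70.8 CPM in vitiligo skin (median 38.4) and 67.7 to 95.6 CPM with vitiligo and ABX (median 85.6). It was 33.2 to 78.8 CPM without induction and 58.9 to 86.0 CPM in uninduced skin with ABX. Of the 9 markers, Matn1 and Snorc had no count in any library of vitiligo skin with ABX, and none of the 9 was at 0 in every library of vitiligo skin without ABX. Of the 4 markers tested, 3 rose with ABX in induced skin and 2 in uninduced skin, where 5.06% and 15.4% of all genes were called as higher. Acan, the main cartilage proteoglycan, rose by 1.92 in induced skin (edgeR adjusted p = 0.00237) and by 1.08 in uninduced skin (adjusted p = 0.00293). The part of cartilage content in the Col11a1 and Col9a3 results was not tested. Col10a1, a chain of the cartilage growth zone, ranged from 0 to 8.30 CPM over all libraries and was not called.

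**Figure D4:**
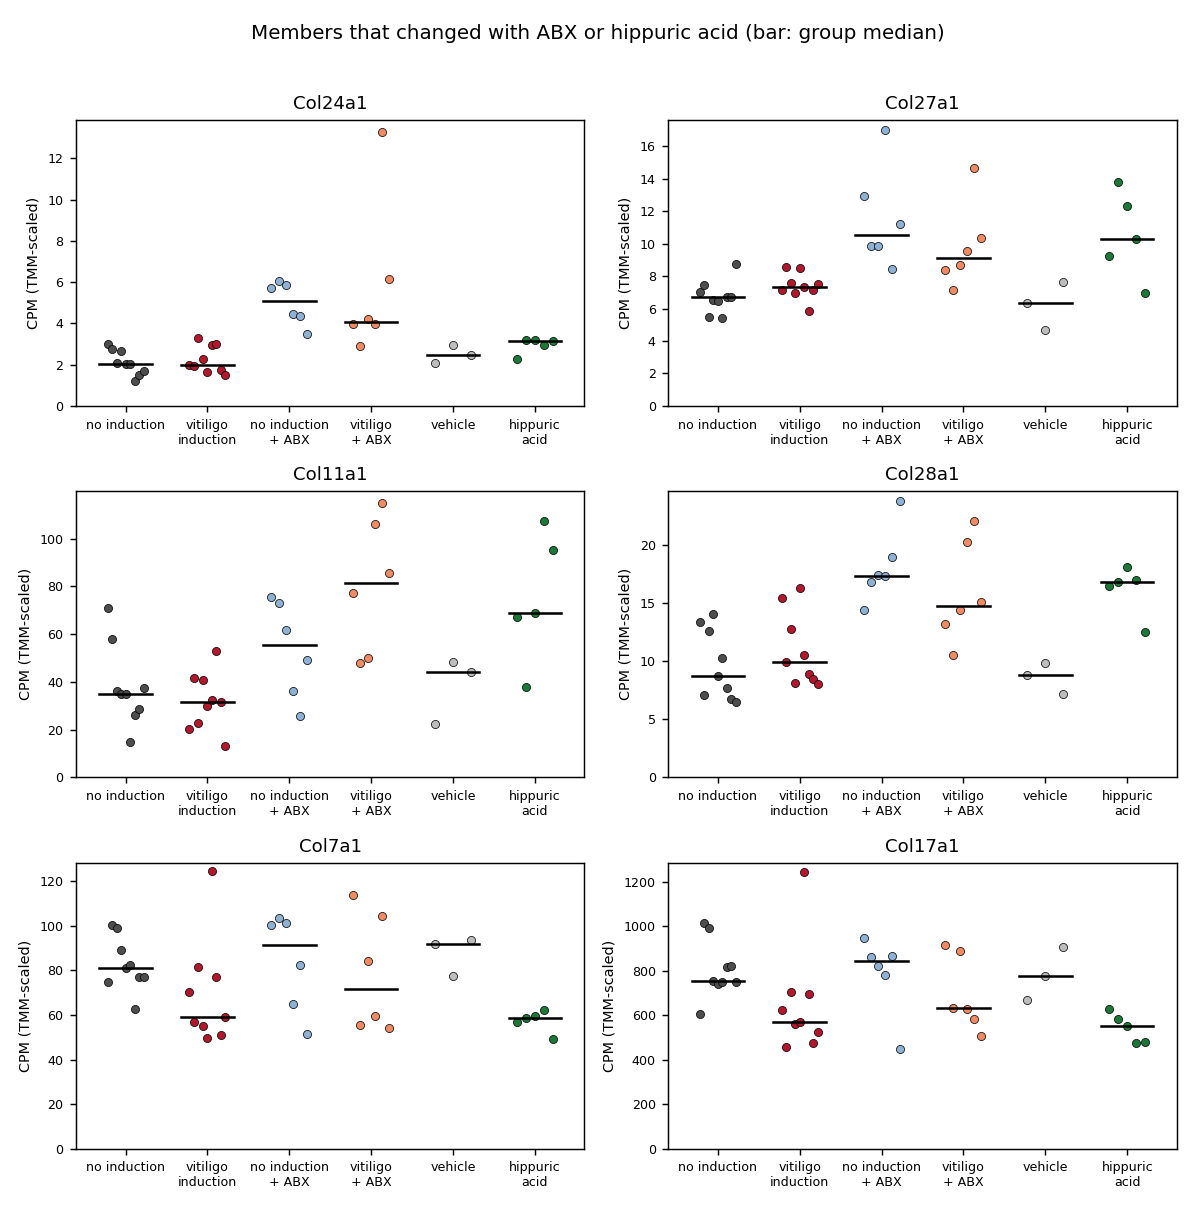
Col24a1, Col27a1, Col11a1, Col28a1, Col7a1 and Col17a1 in CPM, with 1 point per library in the 6 groups and a bar at each group median. Col28a1 is higher in all 6 uninduced ABX libraries than in all 9 no-induction ones and higher in all 5 hippuric acid libraries than in all 3 vehicle ones, while Col7a1 and Col17a1 are lower with hippuric acid.

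The short chain members were called in no comparison by edgeR or DESeq2, and limma-voom called 1 of 2 with induction, where it called 42.6% of all genes. Col8a1 and Col8a2, chains of the type VIII network of vessels and other tissues, had folds between -0.08 and 0.45 over the 5 group comparisons. Col26a1 was tested in 3 of those 5.

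Procollagen chains need enzymes and chaperones before they can fold. Of the 19 such genes on the list, 1 rose with induction, Serpinh1, the chaperone of procollagen, by 0.35 ± 0.10 (edgeR adjusted p = 0.0374), where 7.74% of all genes were called. DESeq2 called 3 of the 19 there and limma-voom 11, all as higher, where they called 12.6% and 42.6% of all genes. With ABX, P4ha2, a subunit of prolyl hydroxylase, fell by 0.50 in uninduced skin (adjusted p = 0.0119) and by 0.63 in induced skin (adjusted p = 0.0297). P3h4, another gene of the list, fell by 0.36 and 0.45 there (adjusted p = 0.0272 and 0.0437) and by 0.74 with hippuric acid (adjusted p = 0.00475). In all, 2 rose and 2 fell in uninduced skin with ABX, 1 rose and 2 fell in induced skin, and 1 rose and 1 fell with hippuric acid. Of all genes, 31.1%, 13.1% and 13.8% were called in these comparisons. The median fold of the list was 0.13, -0.02 and 0.10 in these 3 comparisons, against -0.002, 0.02 and 0.02 for all genes.

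Secreted procollagen is trimmed and cross-linked. Of the 12 genes tested, 5 rose and 1 fell with ABX in uninduced skin, with a median fold of 0.37, where 15.4% of all genes were called as higher and 15.8% as lower. Lox and Loxl1, which oxidize lysines for cross-links, rose by 0.99 ± 0.19 and 0.87 ± 0.16 (edgeR adjusted p = 0.0011 and 0.000713). Loxl1 also rose with hippuric acid by 0.97 ± 0.16 (adjusted p = 0.00317), the single call of the list there. Pcolce, which helps to cut the C-terminal end of procollagen, fell by 0.80 with ABX in induced skin (adjusted p = 0.0105). With induction none of the 11 tested was called by edgeR, where 6 had an unadjusted p under 0.05. DESeq2 called 1 and limma-voom 9, all as higher, where they called 12.6% and 42.6% of all genes.

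Collagen is broken down by metalloproteinases and sensed by cell receptors. Of all genes, 15.4% were called as higher with ABX in uninduced skin and 5.48% with hippuric acid. Of 12 breakdown genes tested, 5 rose with ABX in uninduced skin, among them Mmp2 by 0.89 and the inhibitor Timp3 by 0.76 (edgeR adjusted p = 0.000571 and 0.000131). Timp3 and Mmp14 rose with hippuric acid by 0.81 and 0.58 (adjusted p = 0.00304 and 0.00805), and Mmp3 fell by 1.46 (adjusted p = 0.0126). Of 7 receptor genes, 4 rose with ABX in uninduced skin, led by Ddr2, a receptor for fibrillar collagen, at 0.75 (adjusted p = 0.000143). Ddr2 also rose with hippuric acid, by 0.49 (adjusted p = 0.0475). With induction edgeR called none of the 12 breakdown genes and none of the 7 receptor genes, of which 3 each had an unadjusted p under 0.05. DESeq2 called 2 of each list there, and limma-voom 5 and 6, where they called 12.6% and 42.6% of all genes.

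Of 13 fibril-binding proteoglycans and partners tested, edgeR and DESeq2 each called 2 with induction, both as higher, where edgeR called 7.74% of all genes. limma-voom called 10, of which 9 as higher, where it called 42.6% of all genes and DESeq2 12.6%. Dpt and Ogn, small matrix proteins that bind fibrils, rose by 0.96 and 0.99 (edgeR adjusted p = 0.025 and 0.0318). In induced skin with ABX 1 of 13 rose, Comp by 1.07 (adjusted p = 0.0183), and 1 fell (13.1% of all genes called). Dpt fell there by 1.50 (adjusted p = 0.00168), and the difference between the 2 induction effects was -1.31 (adjusted p = 0.0183). With ABX in uninduced skin 2 of 13 rose and 1 fell (31.1% of all genes called), and with hippuric acid 1 rose and 1 fell (13.8% called). Aspn, a small proteoglycan of the fibril surface, rose by 1.24 in uninduced skin with ABX (adjusted p = 0.0014). Tnxb, which codes for tenascin-X, a partner of dermal fibrils, rose by 0.59 there (adjusted p = 0.0131) and by 0.69 with hippuric acid (adjusted p = 0.0286). Fmod, which controls fibril assembly, fell by 0.79 with ABX in uninduced skin (adjusted p = 0.0287) and by 1.05 with hippuric acid (adjusted p = 0.0171).

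TGF-beta is a main inducer of collagen genes in fibroblasts. Of 14 genes of its signalling tested, 9 rose and none fell with ABX in uninduced skin, with a median fold of 0.49 against -0.002 for all genes, where 15.4% of all genes were called as higher. Ccn2, a target of the pathway, rose by 1.56 ± 0.17 (edgeR adjusted p = 1.47e-05), and Ltbp2, a relative of the proteins that store TGF-beta in the matrix, by 1.96 ± 0.24 (adjusted p = 4.26e-05). The ligand gene Tgfb2 rose by 0.67 ± 0.10 (adjusted p = 0.000125). In induced skin 2 of 14 rose, Ltbp2 by 2.07 and Ccn2 by 0.91 (adjusted p = 0.00133 and 0.0421), where 5.06% of all genes were called as higher. With hippuric acid 3 rose (5.48% of all genes called as higher), Ltbp2 by 1.52, Tgfbr1 by 0.48 and Tgfbr3 by 0.66 (adjusted p = 0.0284, 0.0296 and 0.0371). With induction edgeR called none, with 2 under an unadjusted p of 0.05, DESeq2 called 1 and limma-voom 6. Of all genes they called 7.74%, 12.6% and 42.6% there. In the uninduced ABX libraries in which 9 of the 14 genes rose, 5 of the 8 fibrillar collagen members rose and 1, Col1a1, fell. The Col1a1 call was lost when any 1 of 9 of the 15 libraries was left out and with limma-voom. The part of TGF-beta signalling in the collagen results was not tested.

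The 5 genes most like Col1a1 over the 38 libraries, by Pearson correlation of log2 levels among all genes outside the collagen family, were Pdgfrl (r = 0.867, Spearman rho 0.849), Sparc (r = 0.845, rho 0.815), Creb3l1 (r = 0.822, rho 0.766), Rcn3 (r = 0.805, rho 0.702) and Adamts2 (r = 0.802, rho 0.727). Sparc codes for a collagen-binding matrix protein and Adamts2 for the enzyme that removes the N-terminal end of procollagen. All 38 points share library depth and the group differences, so these values are a description with no p.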

How the data were processed

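The authors deposited 1 table of expected counts per gene for 38 bulk RNA-seq libraries of mouse tail skin. Of tools, the submitters' processing notes list HISAT2 and Bowtie2 (2.2.8) as well as DESeq2 and StringTie (1.3.1). The genome build and the use of strand are not given in the sources used here. Of 19220 rows, 1 incomplete row was left out. Values were not whole in 16.2% of genes, 2 members among them, and were rounded, which moved a library total by at most 22.14 counts.

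Library totals of 15341831 to 27920844 counts set the precision of the levels. Counts were TMM-scaled to CPM with edgeR 4.0.16 (R 4.3.3), filtered with filterByExpr and tested with the robust quasi-likelihood test over the libraries of the groups compared. P-values were adjusted by Benjamini-Hochberg over all genes tested. DESeq2 1.42.0 and limma 3.58.1 were alternatives, beside RLE scaling, other filters, a fit of all 38 libraries, a replicate block and leaving out each library. These 5 alternatives were chosen after seeing the data: the replicate block for ABX in induced skin, leaving out libraries with Ddx3y, leaving out libraries with Fabp2, adipocyte marker level as a covariate, and a length and GC offset. Lengths came from GENCODE M21 and promoter letters from RefSeq GRCm38.p6. The fit was tested on simulated data. Counts of libraries in a group always differed by more than sampling noise, with a chi-square per degree of freedom of at least 7.33.

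The members, classes and companion lists were chosen with earlier results of these data known. Values by library were given for called members (at most 4 per class and comparison) and for Col1a1, Col1a2, Col3a1, Col4a1, Col7a1, Col17a1 and Col6a1. At most 4 genes of each companion list were named per comparison, by smallest p, and the 5 genes most like Col1a1.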

Additional observations from a re-analysis of the deposited data

Results flagged for a closer look

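The lowest and highest library of each group were compared with the rest of the group for 24 members, in 120 groups of 4 to 10 values. In 9 of them 1 library stood further from its nearest neighbour, as a share of the group's range, than Dixon's 95% limit. Chance alone sets apart about 1 in 20 groups, and the 9 values came from 5 libraries.

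Vitiligo library 062 was the highest of its group for Col17a1 (1246.78 CPM, next 705 CPM), Col7a1 (124.499 CPM, next 81.7 CPM) and Col4a3 (5.1978 CPM, next 3.53 CPM). No-induction ABX library 006 was the lowest of its group for Col17a1 (450.377 CPM, next 781 CPM) and Col18a1 (212.4 CPM, next 261.024 CPM), and it had the lowest basal keratinocyte marker sum of that group (5947 CPM). Vitiligo ABX library 005 was the highest of its group for Col24a1 (13.2601 CPM, next 6.16 CPM) and Col25a1 (3.7546 CPM, next 1.63 CPM). Vitiligo library 001 was the lowest of its group for Col6a1 (217.685 CPM, next 416 CPM). Hippuric acid library 5 was the lowest of its group for Col4a3 (4.0754 CPM, next 5.35 CPM).

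Col5a3 changed differently with induction in the presence and absence of ABX. The induction effect under ABX minus that without ABX was -0.81388 on the log2 scale by edgeR's test of the difference.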

How the results depend on the processing

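The number of collagen genes called moved with the test and less with scaling or filter. With limma-voom it was 17 for induction (5 with edgeR), 21 for ABX in uninduced skin (13), 3 for induction under ABX (1) and 5 for the difference between induction effects (1). DESeq2 gave 2 for induction under ABX (9.25% of all genes) and 2 for the difference between induction effects (14.4%). The fit of all 38 libraries also gave 2 for each (6.4% and 12.4%), and 2 for hippuric acid (7 with edgeR), where it called 12.1% of all genes. RLE scaling and the stricter filter each gave 2 for the difference between induction effects (11.6% and 12.4% of all genes). With the adipocyte covariate the number was 0 for induction, ABX in induced skin, hippuric acid and the difference between induction effects, and 2 for induction under ABX. Of all genes, 0%, 0.007%, 0.007%, 0.929% and 3.11% were called in these fits. The lost calls with that covariate were thus not particular to collagen. For induction, ABX in induced skin and hippuric acid, group and marker level can hardly be told apart in these fits. Lost calls and turned signs there decide nothing about adipocyte content. Without the libraries with Fabp2 the number was 3 for induction, 5 for ABX in induced skin and 0 for the difference between induction effects (3.7%, 6.9% and 9.4% of all genes). That difference gave 2 without the libraries with Ddx3y (12.7% of all genes) and 3 with the length and GC offset (14.4%). The causes were not tested. Leaving out 1 library at a time gave 5 to 8 for induction, 6 to 9 for ABX in induced skin, 8 to 15 for ABX in uninduced skin, 1 to 2 for induction under ABX, 4 to 10 for hippuric acid, 1 to 3 for the difference between induction effects and 0 for vehicle. All genes called moved too, from 688 to 2571 for induction, and from 1183 to 2803 and 3431 to 4732 for ABX in induced and uninduced skin. They were 228 to 863 for induction under ABX, 1149 to 2786 for hippuric acid, 1177 to 2679 for the difference and 0 to 2 for vehicle.

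With the replicate number as a block, 8 members were called for ABX in uninduced skin (10.3% of all genes), 2 for hippuric acid (6.29%) and 1 for induction under ABX (5.7%). None was called for ABX in induced skin (1.11% of all genes), vehicle (0.042%) and the difference between induction effects (0%). For ABX in induced skin only numbers 001 and 006 occur in both groups, so this fit rests on 4 of its 15 libraries. Its folds were 0.52 for Col1a1, 0.40 for Col1a2, 0.44 for Col4a1 and 0.13 for Col15a1, each of the opposite sign to the fit without the block. Same-numbered libraries correlated between -0.137 and 0.372, and not every library matched its own number best, so the libraries share only a number. No paired analysis was possible because the groups share 1 number only, for induction.

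Of 64 folds of named members, 64 kept their direction and call with RLE scaling, 63 with DESeq2 and 53 with limma-voom. Scaling moved the median of all genes by less than 0.1.

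Signs that turned belonged to folds without a call, apart from those of the adipocyte covariate and Col15a1 under the block. With that covariate, induction folds were -0.19 for Col6a1, -0.39 for Col1a1, 0.38 for Col17a1, 0.18 for Col7a1, -0.34 for Col3a1, -0.46 for Col1a2 and -0.064 for Col4a2. ABX folds in induced skin were -0.79 for Col6a1, -0.31 for Col18a1, -0.37 for Col17a1, -0.78 for Col7a1, -1.24 for Col3a1, -0.72 for Col11a1, -0.83 for Col24a1 and -0.0075 for Col4a3. ABX folds in uninduced skin were 0.47 for Col1a1, -0.12 for Col7a1 and 0.89 for Col1a2. Induction folds under ABX were 0.19 for Col6a1, 0.054 for Col7a1 and 0.066 for Col3a1. With limma-voom, ABX gave -0.035 for Col6a1 in induced skin, and 0.042 for Col17a1 and 0.037 for Col1a2 in uninduced skin, and hippuric acid gave 0.15 for Col3a1. The fit of all 38 libraries gave Col1a1 -0.0049 with induction. The replicate block gave Col17a1 0.10, and the length and GC offset gave Col7a1 -0.034, both for ABX in uninduced skin. Without vehicle library 001, which holds both Ddx3y and Fabp2, hippuric acid folds were 0.022 for Col1a1 and 0.34 for Col3a1.

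Leaving out 1 library at a time, induction folds ran from -0.067 to 0.13 for Col1a1 and from -0.034 to 0.16 for Col1a2. ABX folds in induced skin ran from -0.14 to 0.12 for Col6a1, from -0.0024 to 0.26 for Col17a1 and from -0.069 to 0.26 for Col3a1. In uninduced skin they ran from -0.078 to 0.10 for Col17a1 and from -0.033 to 0.14 for Col7a1. Induction under ABX ran from -0.20 to 0.040 for Col6a1 and from -0.063 to 0.15 for Col1a2. Hippuric acid folds ran from -0.84 to 0.022 for Col1a1, from -0.65 to 0.34 for Col3a1 and from -0.071 to 0.26 for Col6a1. Counts per library limit the calls of members near 1 CPM, such as Col6a6, Col6a4 and Col25a1.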
